A study of Mus musculus with 41 samples.

Results

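The 41 genes described here encode the parts of the sarcomere, the contractile unit of striated muscle, and the proteins that fold, assemble and turn over those parts. They were taken as a list of gene symbols, and each symbol matched 1 of the 21755 protein-coding genes annotated on chromosomes 1 to 19 and X of the mouse genome build mm10. By role, 16 belong to the thin filament, 10 to the thick filament, titin and the M-band, 11 to the Z-disc and 4 to upkeep. For every gene, promoters (2 kb on either side of any annotated transcription start site, TSS) and the gene body were read in 24 lists of CUT&Tag peaks, an assay in which an antibody guides a transposase to cut DNA beside a histone modification. The marks were lactylation of histone H3 lysine 18 (H3K18la), H3K27ac and H3K4me3, which are found at active genes, and H3K27me3, which is found at genes silenced by Polycomb proteins.

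A sarcomere is built from thin filaments of actin, tropomyosin and troponin that slide along thick filaments of myosin. The Z-disc anchors the thin filaments, the M-band crosslinks the thick filaments, and the giant protein titin spans from Z-disc to M-band. Many of these proteins have separate genes for fast-twitch fibres, slow-twitch fibres and heart, and myoblasts turn most of them on only as they fuse into myotubes.

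The muscle lineage was represented by gastrocnemius muscle of female C57BL/6 mice of 8 to 12 weeks (GAS), primary myoblasts (MB) and the myotubes differentiated from them in low-serum medium (MT). The other cell types were E14 embryonic stem cells in serum with LIF (ESC-ser) or in 2i with LIF (ESC-2i), macrophages cultured from bone marrow with M-CSF (BMDM), macrophages sorted from calf muscle 2 days after the onset of hindlimb ischemia (PIM) and adipocyte nuclei captured from white fat of AdipoCre-NuTRAP mice (ADIPO), in which Cre from an adipocyte promoter tags the nuclei. The methods give the same sex and age range for the mice of the macrophage samples, and female mice within that age range for ADIPO. All samples were labelled as controls, the assay was run on intact stem cells and on nuclei of the other 6 types, and gastrocnemius is a tissue that also holds non-muscle cells. H3K18la was profiled in all 8 cell types, H3K27me3 in 7, H3K27ac in 5 and H3K4me3 in 4. The 24 lists came from 17 groups of 2 pooled samples and 7 single samples, so a list has no replicate error and the cell type is the unit. The lists held 11008 to 36823 peaks and covered 22.6 to 197 Mb.

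Most defining markers were called where the labels place them. H3K18la peaks lay on the promoters of 6 of 6 macrophage markers in BMDM and in PIM, 5 of 5 adipocyte markers in ADIPO, 5 of 5 stem cell markers in both ESC lists and 6 of 6 skeletal muscle markers in GAS and in MT. In MB no skeletal muscle marker and 3 of 4 muscle stem cell markers had a peak. GAS also had H3K18la on 4 of 4 fibroblast and 4 of 4 endothelial markers, and on 1 of 6 macrophage and 2 of 5 adipocyte markers. Calls outside the labelled type included 3 of 6 skeletal muscle markers in ESC-ser, 2 of 6 in ESC-2i and 3 of 5 adipocyte markers in PIM. In a tissue, fewer cells of a type cannot be told apart from less of a mark per cell.

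To show sequence at or near these marks, 7 promoters are printed from RefSeq (build GRCm38.p6, the same assembly as mm10), each running from 250 bases before to 50 bases after the start. RefSeq promoters were matched by symbol for 30 of the 41 genes. Tnnc2 (fast troponin C, chr2:164779685-164779984, minus strand) is shown as a gene fully covered by H3K18la in GAS and MT. Acta1 (skeletal muscle actin, chr8:123894726-123895025, minus strand), Myom3 (a myomesin of the M-band, chr4:135759465-135759764, plus strand), Smyd1 (a methyltransferase needed for myofibril assembly, chr6:71262232-71262531, minus strand) and Mybpc2 (fast myosin-binding protein C, chr7:44524620-44524919, minus strand) are shown because all 3 active marks and H3K27me3 were called at their promoters in GAS. Nebl (nebulette, a nebulin relative of heart muscle, chr2:17731085-17731384, minus strand) and Myl3 (the slow and ventricular essential light chain, chr9:110763428-110763727, plus strand) are shown because H3K27me3 was called within 2 kb of these starts, without H3K18la, in GAS. Capitals mark E-boxes (CANNTG, the letters read by MyoD-family factors) and CArG boxes (the serum response factor motif), searched on both strands.
Tnnc2: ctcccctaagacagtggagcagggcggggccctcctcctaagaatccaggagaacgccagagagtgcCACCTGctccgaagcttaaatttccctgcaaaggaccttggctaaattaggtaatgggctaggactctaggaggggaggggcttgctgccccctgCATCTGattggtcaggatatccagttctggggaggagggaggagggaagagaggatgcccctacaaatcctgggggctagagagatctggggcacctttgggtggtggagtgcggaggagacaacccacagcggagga
Acta1: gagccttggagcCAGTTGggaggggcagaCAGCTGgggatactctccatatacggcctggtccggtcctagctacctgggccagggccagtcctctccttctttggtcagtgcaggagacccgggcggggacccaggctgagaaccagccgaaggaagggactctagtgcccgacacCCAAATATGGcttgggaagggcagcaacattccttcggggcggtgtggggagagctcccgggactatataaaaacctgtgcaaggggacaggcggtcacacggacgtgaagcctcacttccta
Myom3: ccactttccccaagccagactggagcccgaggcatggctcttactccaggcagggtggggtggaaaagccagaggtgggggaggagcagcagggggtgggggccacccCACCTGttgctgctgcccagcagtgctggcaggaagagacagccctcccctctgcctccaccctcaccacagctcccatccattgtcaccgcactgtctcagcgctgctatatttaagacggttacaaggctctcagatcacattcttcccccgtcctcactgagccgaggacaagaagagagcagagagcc
Smyd1: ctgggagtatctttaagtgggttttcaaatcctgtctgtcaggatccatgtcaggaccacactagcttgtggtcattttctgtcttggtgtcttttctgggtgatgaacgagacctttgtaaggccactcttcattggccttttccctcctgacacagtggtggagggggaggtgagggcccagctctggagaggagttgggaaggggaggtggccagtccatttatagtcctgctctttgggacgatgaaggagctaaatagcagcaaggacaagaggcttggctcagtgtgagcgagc
Mybpc2: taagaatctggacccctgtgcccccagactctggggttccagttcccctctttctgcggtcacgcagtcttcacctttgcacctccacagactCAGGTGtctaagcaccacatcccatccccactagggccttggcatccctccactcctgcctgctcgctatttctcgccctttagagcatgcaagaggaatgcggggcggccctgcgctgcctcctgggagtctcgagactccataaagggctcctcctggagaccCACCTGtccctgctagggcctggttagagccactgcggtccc
Nebl: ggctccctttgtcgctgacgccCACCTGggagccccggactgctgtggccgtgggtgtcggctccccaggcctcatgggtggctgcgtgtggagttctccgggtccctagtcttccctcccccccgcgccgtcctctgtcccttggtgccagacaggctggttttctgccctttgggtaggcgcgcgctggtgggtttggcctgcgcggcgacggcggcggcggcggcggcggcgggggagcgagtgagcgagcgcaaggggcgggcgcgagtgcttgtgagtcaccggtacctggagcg
Myl3: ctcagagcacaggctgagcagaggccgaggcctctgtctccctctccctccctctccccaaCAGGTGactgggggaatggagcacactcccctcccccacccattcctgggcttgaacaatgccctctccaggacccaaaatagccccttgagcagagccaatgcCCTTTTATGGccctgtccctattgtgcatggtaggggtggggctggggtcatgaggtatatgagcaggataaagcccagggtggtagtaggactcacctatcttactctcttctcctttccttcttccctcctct

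In GAS, H3K18la, H3K27ac and H3K4me3 peaks each lay over all 300 bases of the Tnnc2, Acta1, Myom3, Smyd1 and Mybpc2 windows. H3K27me3 in GAS lay over all 300 bases of Acta1 and Smyd1, 263 bases of Myom3 and none of the Mybpc2 window, where its peak was within 2 kb of the start but beside the printed bases. The Nebl window was under H3K4me3 and H3K27me3 in GAS over all 300 bases, and the Myl3 window held no GAS peak of any of the 4 marks. An E-box was present in 6 of the 7 windows, all but Smyd1, and Acta1 and Myl3 each held 1 CArG box. Taking 1 promoter per gene, a CANNTG E-box occurred in 27 of 30 sarcomere gene windows (90%) and in 68.4% of 16433 protein-coding gene windows of the same length. The CAGCTG form, which is part of that count, occurred in 13 of 30 (43.3%) against 15.3%, the muscle CAT motif CATTCC in 11 of 30 (36.7%) against 13.2%, the CArG box in 5 of 30 (16.7%) against 1.55%, the MEF2 site in 4 of 30 (13.3%) against 1.7% and TATAAA in 6 of 30 (20%) against 12.8%, the non-palindromic motifs searched on both strands. These are matches of letters and say nothing on binding.

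H3K18la marked nearly the whole sarcomere gene set in differentiated muscle and a smaller share of it elsewhere. Promoters carried an H3K18la peak for 38 of 41 genes in MT (92.7%, 95% Wilson interval over genes 80.6% to 97.5%), where 34.8% of all protein-coding genes had one. In GAS the count was 35 of 41 (85.4%, 71.6% to 93.1%) against 36.1% of all genes, and in MB 12 of 41 (29.3%, 17.6% to 44.5%) against 11.1%. Outside muscle the counts were 14 in ESC-ser (34.1%, against 33.4% of all genes), 16 in ESC-2i (39%, against 37.8%), 6 in BMDM (14.6%, against 18.5%), 9 in PIM (22%, against 37.8%) and 16 in ADIPO (39%, against 44.7%). These 5 shares were close to or below the share of all genes in the same list, and the 3 muscle shares were above theirs. Read by the CpG content of promoters, as given below, shares in ESC-ser, ESC-2i and ADIPO were partly above those of all genes. The mean share was 69.1% ± 34.7 (SD over cell types, n = 3) in muscle and 29.8% ± 11 (n = 5) in the others, a difference of 39.3 percentage points, while over all genes the difference was -7.13 points. The muscle SD came from MB, and without MB, a single-sample list, the difference was 59.3 points in the sarcomere genes and 0.975 points over all genes. The lists differ in covered bases, and with every list reduced to the bases of the smallest list of its mark the difference was 18.4 points in the sarcomere genes and -4.58 points over all genes. Sarcomere genes had a median of 5 annotated starts, against 3 for all protein-coding genes, and the shares were not adjusted for this.

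**Figure D1:**
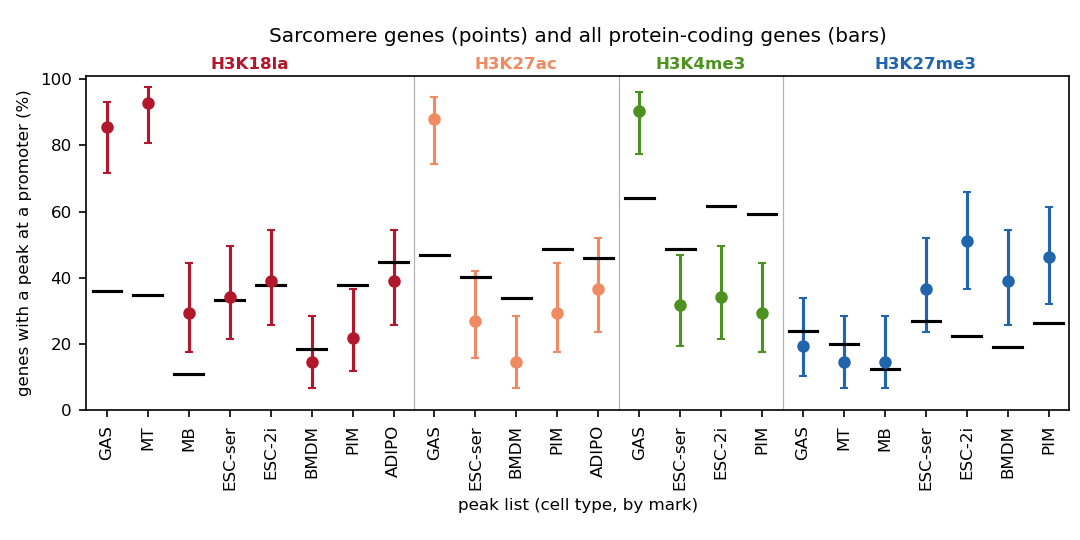
Share of genes with a peak at a promoter (vertical axis, %) in each of the 24 peak lists (horizontal axis, by mark). Points are the 41 sarcomere genes with 95% Wilson intervals over genes, and black bars are all 21755 protein-coding genes. GAS and MT stand far above their bars for H3K18la (85.4% and 92.7%), and for H3K27me3 the 4 non-muscle lists stand above theirs.

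**Figure D2:**
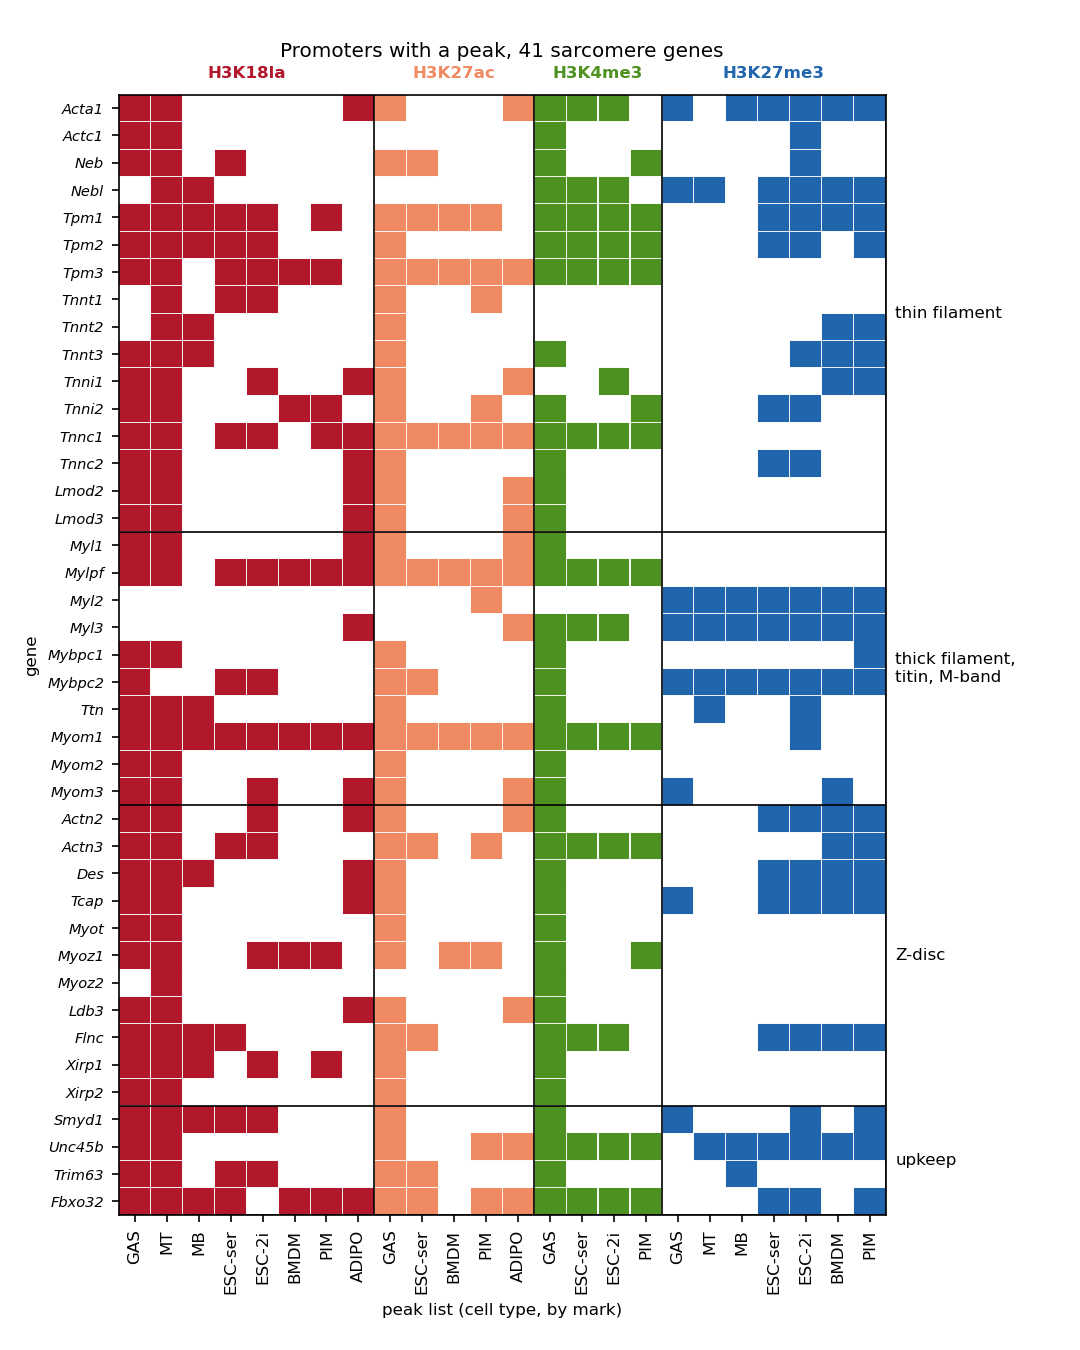
Promoter calls of every gene (rows, by role) in every list (columns, by mark and cell type), with a filled square for a peak within 2 kb of any annotated start. H3K18la fills 35 rows in GAS and 38 in MT, and H3K27me3 fills 8 rows in GAS, 6 in MT, 6 in MB and 15 to 21 in the 4 other lists.

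By role, H3K18la promoter calls in GAS, MT and MB were 13, 16 and 5 of 16 for the thin filament, 8, 7 and 2 of 10 for the thick filament, titin and M-band, 10, 11 and 3 of 11 for the Z-disc and 4, 4 and 2 of 4 for upkeep. The median share of the gene body under H3K18la peaks was 22.5% in GAS and 25.3% in MT and 0 in each of the other 6 lists, as it was over all protein-coding genes in all 8 lists. At least 50% of the body was covered for 16 genes in GAS, where 5.36% of all genes reached that level, and for 11 in MT, against 4.21%. Of the 41 genes, 34 had a higher mean coverage in the 3 muscle lists than in the 5 others, against 29.7% of all genes, and 7 had a lower mean (Tpm3, Tnnt1, Tnni1, Myl2, Myl3, Ttn and Smyd1). For 8 members this direction turned when 1 cell type was left out. The lower mean turned higher for Tpm3 without ESC-2i (2.66 points), Tnnt1 without ESC-ser (0.995), Tnni1 without ESC-2i (6.58) or MB (3.72) and Ttn without ESC-2i (0.73), MB (0.089) or MT (0.0071). The higher mean turned lower without GAS for Mylpf (-2.36 points), Mybpc2 (-1.72), Actn3 (-3.85) and Ldb3 (-6.79), without MT for Mylpf (-3.34) and Actn3 (-0.0653), and for Actn3 also without BMDM, PIM or ADIPO (-1.76 each). The median difference was 15.5 percentage points, against 0 over all genes.

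Coverage of each gene was compared between the 3 muscle and the 5 other cell types with an exact two-sided permutation test over the 56 assignments, with Benjamini-Hochberg adjustment over all 21755 genes. No gene passed an adjusted p of 0.05, and the smallest adjusted p of any gene was 0.936. The design allows no exact p under 0.0179, and 7770 genes at that value would have been needed for any to pass. An unadjusted exact p of 0.0179, the smallest possible, was reached by 5 members (Neb, Tnnt3, Lmod3, Flnc and Fbxo32), in which all 3 muscle lists lay above all 5 others, as they did in 1.96% of all genes. With lists reduced to equal bases 1 member and 0.363% of all genes had all 3 muscle lists above all 5 others, and the difference in median coverage fell from 15.9 to 0 points. A mean higher in muscle at an unadjusted exact p of 0.05 or less was found in 2.79% of all genes. Leaving out MB, GAS and MT both lay above the 5 other lists for 17 members and for 7.79% of all genes.

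**Figure D3:**
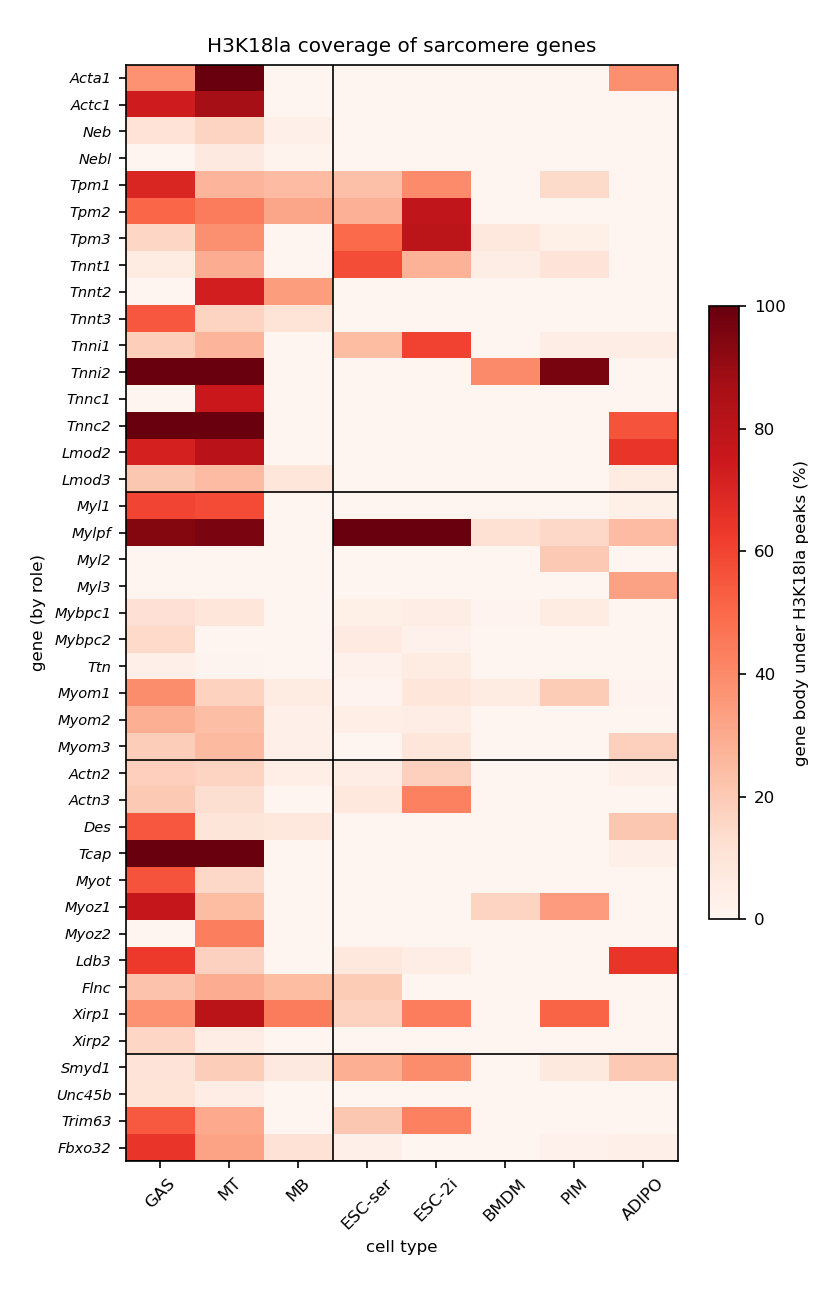
Share of each gene body under H3K18la peaks (colour, 0 to 100%) for the 41 genes (rows, by role) in the 8 cell types (columns, muscle left of the line). Dark cells gather in GAS and MT, with Tnni2, Tnnc2 and Tcap at 100% in both, while Mylpf is at 100% in both ESC lists.

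Among thin filament genes, mean coverage in muscle was highest for Tnni2 and Tnnc2. Tnni2, the fast inhibitory troponin, was covered over 100% of its body in GAS and MT, 96.3% in PIM, 40.1% in BMDM and none in the other 4 lists. Tnnc2 was covered over 100% in GAS and MT, 55.9% in ADIPO and none in the other 5. Tnnt3, the fast tropomyosin-binding troponin, was covered over 54.9% in GAS, 16.7% in MT and 10.4% in MB, and no H3K18la peak touched it in the 5 other cell types. Of these 3 genes, Tnnt3 had muscle values that did not overlap the others, whereas Tnni2 in PIM and Tnnc2 in ADIPO lay above the 0% of MB.

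The slow troponins were distributed differently. Tnnt1, the slow tropomyosin-binding troponin, was covered over 29.6% in MT, 5.11% in GAS, 57.4% in ESC-ser, 27.4% in ESC-2i, 9.96% in PIM and 4.88% in BMDM, and not in MB or ADIPO. Tnni1, the slow inhibitory troponin, was covered over 26.6% in MT, 18.5% in GAS, 60.3% in ESC-2i, 24.3% in ESC-ser, 4.97% in PIM and 4.56% in ADIPO. Both genes thus had their highest H3K18la coverage in a stem cell list. Tnnc1, the slow and cardiac troponin C, was covered over 75% in MT and over none of its body in the other 7 lists. Its promoter was nevertheless called in GAS, both ESC lists, PIM and ADIPO. In GAS, both ESC lists and PIM that peak lay 695 to 1736 bp from the Tnnc1 start, and in all 6 lists with a call the peak also overlapped a promoter of the neighbouring gene Nisch.

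Nebulin (Neb), which sets thin filament length, was covered over 16.6% in MT, 10.9% in GAS and 2.79% in MB, and over 0.25% or less elsewhere. Nebl had the lowest muscle coverage of the thin filament genes, at 6.8% in MT, 1.4% in MB and 0 in GAS and all 5 others. Of the tropomyosins, Tpm1 was covered over 69.9% in GAS, 26.8% in MT, 24.8% in MB, 39.7% in ESC-2i, 23.3% in ESC-ser and 14.3% in PIM, and not in BMDM or ADIPO. Tpm3, which is also expressed as a cytoskeletal tropomyosin, was covered over 80% in ESC-2i, 49.4% in ESC-ser, 38.3% in MT and 15.8% in GAS, with 8.29% in BMDM and 3.78% in PIM. RefSeq gives Tpm3 a pair of starts, and at the upstream one a peak within 2 kb was present in MT H3K18la alone, whereas the downstream one was called in 14 lists. Acta1 was covered over 100% in MT, 37.2% in GAS and 38% in ADIPO and not in the other 5. Its cardiac counterpart Actc1 was covered over 87.1% in MT and 73.8% in GAS and not elsewhere.

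In the thick filament group the regulatory light chain of fast fibres, Mylpf, had the highest mean coverage in muscle, with 95.9% in MT and 94% in GAS. It was also at 100% in ESC-ser and ESC-2i, at 24.9% in ADIPO, 14.9% in PIM and 11.8% in BMDM, and at 0 in MB. Its promoter windows hold starts of Sept1 and Tbc1d10b, and in each of the 7 lists with an H3K18la call every peak at Mylpf also overlapped a promoter of a neighbour. Myl1, the fast essential light chain, was covered over 60.1% in GAS and 58% in MT, 3.86% in ADIPO and nowhere else. Myl2 and Myl3, the slow and ventricular light chains, had no H3K18la promoter call in GAS, MT or MB, as was so for 53.1% of all genes. RefSeq places Myl2 starts elsewhere, under an MT H3K18la peak, so its lack of a call in MT depends on the annotation. Their bodies were touched in a single list each, PIM for Myl2 and ADIPO, over 32.5%, for Myl3. Myom1, a myomesin, was called in all 8 lists and covered over 39% in GAS, 17.1% in MT, 5.97% in MB, 19.3% in PIM and 8.74% or less in the other 4. Starts of Myl12a and Myl12b lie in its promoter windows. Ttn was called at the promoter in the 3 muscle lists and in no other H3K18la list, but the peaks took up 2.85% or less of its 278568 bp in muscle and 5.94% in ESC-2i.

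At the Z-disc, Tcap, the titin cap, was covered over 100% in GAS and MT, 3.32% in ADIPO and none elsewhere. Xirp1, an actin-binding protein of growing and injured muscle, was covered over 80.1% in MT, 44.4% in MB and 37.4% in GAS, but also over 51.2% in PIM, 43.9% in ESC-2i and 16.9% in ESC-ser. The Xirp1 body overlaps Cx3cr1, a macrophage chemokine receptor gene. Xirp2 had the lowest muscle coverage of the group, at 15.7% in GAS, 4.36% in MT and 0 in the other 6 lists. Myoz1, a calsarcin of fast fibres, was covered over 77.1% in GAS, 24.3% in MT, 34.4% in PIM and 16.7% in BMDM, and over none in MB, ADIPO or the ESC lists. Flnc, the muscle filamin, was covered over 29% in MT, 24.4% in MB, 22.5% in GAS and 19.2% in ESC-ser, and over none in the other 4.

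Among upkeep genes, Fbxo32 (the ubiquitin ligase atrogin-1) was covered over 64.1% in GAS, 32.2% in MT and 11.3% in MB and over 3.24% or less in the others, although its promoter was called in 4 of those 5. Trim63 (MuRF1, the other atrophy ligase) was covered over 54.3% in GAS, 30.2% in MT, 42.7% in ESC-2i and 20.9% in ESC-ser. Unc45b, the myosin chaperone, had the lowest muscle coverage, 10.3% in GAS, 5.07% in MT and 0 in the other 6 lists. Smyd1 was covered over 38.8% in ESC-2i, 28.8% in ESC-ser, 20.1% in ADIPO, 19% in MT, 10.1% in GAS, 7.14% in PIM and 6.71% in MB. Its ESC and ADIPO values lay above all 3 muscle values. The gene overlaps Krcc1, and a start of Cd8b1 lies in one of its promoter windows.

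Myoblasts and myotubes differed at 26 promoters that had H3K18la in MT and not in MB, against 24.6% of all genes, and none showed the reverse, against 0.91% of all genes. The MB list covered 40.5 Mb and the MT list 137 Mb, and MB was a single sample, so list size and cell state cannot be told apart in this count. The 12 promoters called in MB were Nebl, Tpm1, Tpm2, Tnnt2, Tnnt3, Ttn, Myom1, Des, Flnc, Xirp1, Smyd1 and Fbxo32. Des encodes desmin, the muscle intermediate filament, and Tnnt2 the cardiac and embryonic troponin T. Tnnt2 was covered over 72.3% in MT and 34% in MB and over none in GAS or the other 5 lists.

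GAS and MT shared 34 of the 41 H3K18la promoters, against 24.6% of all genes, and MB had 10 of these 34 as well, against 8.06%. Nebl, Tnnt1, Tnnt2 and Myoz2 (the slow and cardiac calsarcin) were called in MT and not in GAS, a count of 4 of 41 against 10.2% of all genes, and Mybpc2 in GAS and not in MT, against 11.5%. The first share is about that of all genes. The lists of fibre-type isoforms were chosen with earlier results known and hold these 5 genes, so their counts are a description. All 8 fast isoform genes had an H3K18la promoter in GAS, 7 in MT and 1 in MB, where 36.1%, 34.8% and 11.1% of all genes had one, with a median body coverage of 68.6% in GAS and 41.1% in MT. Of the 8 slow isoform genes 4 had it in GAS, 6 in MT and none in MB, with a median coverage of 2.56% in GAS and 28.1% in MT. These fast and slow counts are by gene symbol, and some calls rested wholly on peaks that also overlapped a promoter of a neighbour. Among the fast genes these were Tnni2 (with Syt8), Tnnc2 (Snx21) and Mylpf (Sept1 and Tbc1d10b) in GAS. In MT they were Tnni2, Mylpf and Actn3. Among the slow genes they were Tnnc1 (Nisch) and Tnni1 (Phlda3) in GAS and Tnnc1 in MT. No GAS peak of H3K18la lay within 2 kb of the upstream RefSeq start of Tpm3, and Myl2 has an MT call if RefSeq starts are used. Of 3 cardiac or developmental isoform genes (Actc1, Tnnt2 and Nebl) 1 had it in GAS, 3 in MT and 2 in MB. H3K27ac and H3K4me3 in GAS were called at 8 of 8 fast and 5 of 8 slow isoform promoters each, where 47% and 64.2% of all genes had a call, and covered a median of 98.4% and 66.2% of the fast and 23.6% and 3.56% of the slow gene bodies. Some of these calls, fast and slow, also rested wholly on shared peaks.

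**Figure D4:**
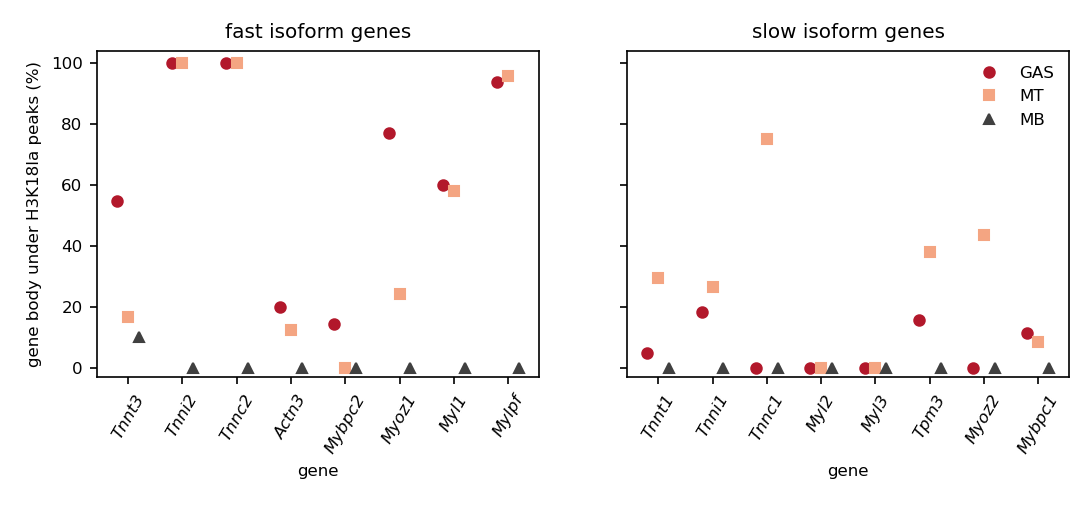
Share of the gene body under H3K18la peaks (vertical axis, %) in GAS, MT and MB for 8 fast (left) and 8 slow (right) isoform genes. In GAS the fast genes reach up to 100% and the slow genes stay at or below 18.5%, whereas in MT both panels hold genes above 40%.

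The 3 active marks coincided on the sarcomere genes of GAS. H3K27ac was called at 36 promoters (against 47% of all genes) and H3K4me3 at 37 (against 64.2%), and 33 promoters held H3K18la, H3K27ac and H3K4me3 together, against 29.4% of all genes. Median body coverage was 53.7% for H3K27ac and 18.3% for H3K4me3. Actc1 had H3K18la and H3K4me3 without H3K27ac (H3K18la without H3K27ac was found at 5.67% of all genes), Tnni1 had H3K18la and H3K27ac without H3K4me3, each from a peak that also overlapped the Phlda3 promoter and lay over 2 kb from both RefSeq starts of Tnni1, and Tnnt1 and Tnnt2 had H3K27ac as their single active mark (found at 1.76% of all genes). Nebl, Myl3 and Myoz2 had H3K4me3 alone, against 15.3% of all genes, and Myl2 had none of the 3, against 32%. Outside muscle H3K27ac was called at 11 promoters in ESC-ser (against 40.2%), 6 in BMDM (34%), 12 in PIM (48.8%) and 15 in ADIPO (46.1%), and H3K4me3 at 13 in ESC-ser (48.8%), 14 in ESC-2i (61.8%) and 12 in PIM (59.4%). In each of these 7 lists the share of sarcomere genes was below that of all genes, and a split by CpG content is given below. With every list reduced to the bases of the smallest of its mark, 11 members and 1.94% of all genes held the 3 marks in GAS.

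In GAS and MT, peaks on these genes ranked above the median gene with a peak and were longer. For the 36 genes with any H3K18la peak in GAS, the peak of largest total signal stood at a median percentile of 92.3 of its list, against 66.6 for all genes with a peak, and was 6838.5 bp long at the median, against 2810 bp. In MT the median lengths were 6477 and 3144 bp. With lists reduced to equal bases the median percentile in GAS among the peaks left was 58, against 56.6. The 5 highest were Tnnt3 (percentile 99.8, a peak of 34746 bp), Fbxo32 (99.5, 23659 bp), Tnni1 (99.4, 19167 bp), Tpm1 (99.1, 19957 bp) and Ldb3 (98.8). In MT the median percentile was 89.4 over 38 genes, against 61.5, led by Myom2 (98.8, 21119 bp), Acta1 (98.8, 20696 bp) and Tnni2 (98.4, 21901 bp). For GAS H3K27ac and H3K4me3 the medians were 97.3 and 97.3, against 73.4 and 77.2. In MB, where 17 genes had a peak, the median percentile was 66.7, against 58.9. A peak over several genes was counted for each, and for H3K18la in GAS 7 of the 35 promoter calls rested wholly on peaks that also overlapped another protein-coding promoter. Among the 5 highest in GAS these were Tnni1 (with Phlda3) and Ldb3 (with Opn4), and peaks covered 18.5% of the Tnni1 body. Of the 2 promoter peaks of Tnnt3 in GAS, 1 also overlapped the Lsp1 promoter. In MT the Tnni2 peak was shared with Syt8.

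**Figure D5:**
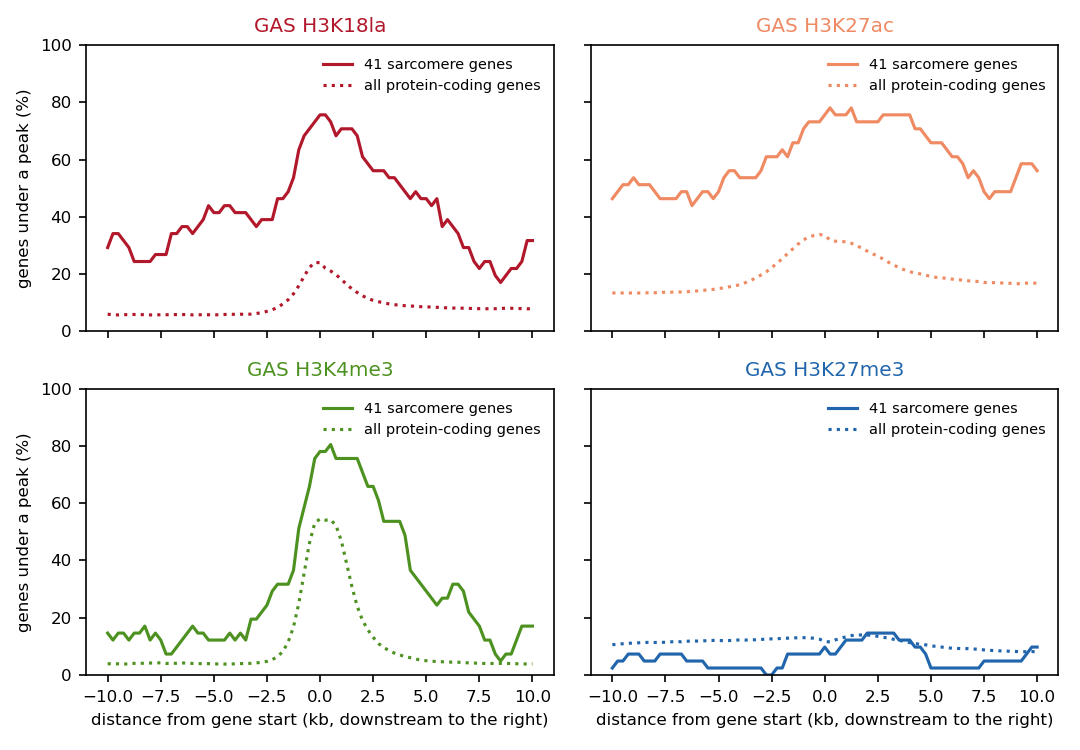
Share of genes under a GAS peak (vertical axis, %) by distance from the gene start (horizontal axis, kb, downstream to the right), for the 41 sarcomere genes (solid) and all protein-coding genes (dotted), by mark. At the start H3K18la lies over 75.6% of the sarcomere genes and 24% of all genes, and 5 kb downstream over 46.3% and 8.58%.

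The active marks lay more often on both sides of sarcomere gene starts than of all gene starts. At the annotated gene start 75.6% of sarcomere genes lay under H3K18la in GAS, at 5 kb downstream 46.3% and at 5 kb upstream 41.5%, against 24%, 8.58% and 5.8% of all genes. H3K4me3 covered 78% of the starts and 29.3% of positions 5 kb downstream, against 54.5% and 4.99%. H3K27ac covered 75.6% and 65.9%, against 33.5% and 19.2%. The downstream position lies beyond the gene for the 5 members shorter than 5000 bp (Acta1, Tnni2, Tnnc1, Tnnc2 and Tcap).

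H3K27me3 lay on fewer sarcomere promoters in muscle than elsewhere. It was called at 8 promoters in GAS (against 23.9% of all genes), 6 in MT (20.1%) and 6 in MB (12.5%), and at 15 in ESC-ser (27%), 21 in ESC-2i (22.5%), 16 in BMDM (19.2%) and 19 in PIM (26.4%). The mean share was 16.3% ± 2.82 (SD, n = 3) in muscle and 43.3% ± 6.72 (n = 4) in the others, a difference of -27 points, against -4.94 points over all genes, and the 3 muscle shares lay below the 4 others. With lists reduced to equal bases the difference was -13.4 points, and -3.38 over all genes. At 14 promoters H3K27me3 was called in none of the 7 lists, as was so for 53.9% of all genes, among them Mylpf, Myl1, Tnnc1, Tnnt1, Lmod2 and Lmod3.

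In all, 16 genes (against 10.2% of all genes) combined H3K27me3 in a stem cell or macrophage list with H3K18la in GAS or MT and no H3K27me3 in any muscle list. Des was under H3K27me3 over 96.5% of its body in ESC-ser, 100% in ESC-2i and BMDM and 29.8% in PIM, and over none in GAS, MT or MB. Flnc was covered over 27.5%, 100%, 54.4% and 89.3% of its body in ESC-ser, ESC-2i, BMDM and PIM, and over none in muscle. Tnnc2 was covered over 49% in ESC-ser and 100% in ESC-2i, and Tnni2 over 100% in ESC-2i, with a promoter call and no body coverage in ESC-ser. Tnnt3 was covered over 58.6% in ESC-2i, 69.4% in BMDM and 23.9% in PIM. In BMDM Tnni1 and Tnnt2, which are neighbours on chromosome 1, lay under a single H3K27me3 peak of 53305 bp (chr1:135798341-135851645), so their calls in that list are not separate. In no other list did a peak join promoters of a pair of members.

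The ESC lists differed in these genes. Actc1, Neb, Tnnt3, Ttn, Myom1 and Smyd1 had H3K27me3 at the promoter in ESC-2i and not in ESC-ser, as 4.05% of all genes did, and no member showed the reverse, which 8.57% of all genes did. The ESC-2i list covered 145 Mb and the ESC-ser list 86.6 Mb. In ESC-ser 8 members held H3K4me3 and H3K27me3 together (Acta1, Nebl, Tpm1, Tpm2, Myl3, Flnc, Unc45b and Fbxo32), against 12.8% of all genes.

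The calls were also read by CpG content, since CpG-rich promoters are the usual sites of H3K4me3 and of H3K27me3 in stem cells. A CpG-rich stretch (500 bp in which GC makes up 55% or more and CpG occurs at 0.65 or more of the rate its bases predict, within 2 kb of a start) was found at 16 of the 41 genes (39%) and at 61% of all protein-coding genes. H3K27me3 in ESC-ser was called at 10 of these 16 and at 5 of the other 25, against 32.8% and 18% of all genes of each kind, and in ESC-2i at 11 of 16 and 10 of 25, against 24.7% and 19.1%. In GAS it was called at 3 of 16 and 5 of 25, against 23.2% and 25%. Outside muscle, H3K27ac and H3K4me3 were called at a smaller share of members than of all genes of the same kind. The exception was H3K27ac in ADIPO at the 25 CpG-poor members (28%, against 13.6%). In ESC-ser the shares at the 16 were 56.25% against 59.9% for H3K27ac and 75% against 75.4% for H3K4me3. H3K18la was called in GAS at 13 of the 16 and 22 of the 25 (88%), against 48.5% of CpG-rich and 16.8% of CpG-poor genes, and in MT at 14 of 16 and 24 of 25 (96%), against 47.3% and 15.3%. Outside muscle, H3K18la was called in ESC-ser at 68.75% of CpG-rich and 12% of CpG-poor members, against 46.5% and 13.1%. In ESC-2i the shares were 62.5% and 24%, against 52.6% and 14.8%, and in ADIPO 43.75% and 36%, against 62.4% and 17.2%. In BMDM they were 25% and 8%, against 24.6% and 9.07%, and in PIM 37.5% and 12%, against 50.8% and 17.6%.

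Of the 8 promoters with H3K27me3 in GAS, 5 (Acta1, Mybpc2, Myom3, Tcap and Smyd1) also carried all 3 active marks, a combination found at 2.45% of all genes. The Tcap calls of all 4 marks rested wholly on peaks that also overlapped the Pnmt promoter, and its H3K27me3 peak lay 594 bp from the Tcap start. The Smyd1 call of H3K27ac rested wholly on a peak that also overlapped the Krcc1 promoter. In GAS the body of Acta1 was covered over 100% by each of H3K27ac, H3K4me3 and H3K27me3 and over 37.2% by H3K18la. H3K27me3 covered Acta1 over 100% in ESC-ser, ESC-2i and PIM, 88.4% in BMDM and 55.8% in MB, and over none in MT, where H3K18la covered 100%. Mybpc2 was under H3K27me3 over 83.3% of its body in GAS, 71.5% in PIM, 63.8% in BMDM, 56.1% in MT, 49.1% in ESC-2i, 23% in MB and 20.9% in ESC-ser, while the active marks lay over 14.6% (H3K18la), 51.8% (H3K27ac) and 25.6% (H3K4me3) of it in GAS. Tcap was covered by H3K27me3 over 48% in GAS and PIM and 100% in both ESC lists. Myom3 and Smyd1 were covered over 8.47% and 10.5% in GAS. GAS also carried H3K18la on all fibroblast and endothelial markers tested, and whether active marks and H3K27me3 lay in the same nuclei was not tested.

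The other 3 genes with H3K27me3 in GAS were Myl2, Myl3 and Nebl. Myl2 was under H3K27me3 over 100% of its body in MT, 63.9% in MB, 26.6% in GAS and 15% to 18.4% in the 4 other lists. Myl3 was covered over 34.6% in GAS and 58.5% to 86.2% in the other 6 lists. Its body overlaps Pth1r, whose start lies in a Myl3 promoter window. Myl2, Myl3 and Mybpc2 had H3K27me3 promoters in all 7 lists, as 5.24% of all genes did, while 9.6% of all genes had it in all 3 muscle lists. At Nebl, H3K27me3 lay on the upstream start printed above in 6 lists, GAS and MT included, while the H3K18la call in MT came from starts inside the gene and none of the 4 RefSeq starts had an H3K18la peak within 2 kb in any list. RefSeq places Myl2 starts 7762 and 8227 bp from the nearest start used here, and peaks of MT H3K18la and of BMDM H3K27me3 lay over all 300 bases of both of those windows, with an MT H3K27me3 peak within 2 kb.

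Some H3K18la calls rested on peaks shared with a neighbouring gene. Of the 61 calls in the 5 other lists, 20 came wholly from peaks that also overlapped another protein-coding promoter, compared with 17 of 85 in the 3 muscle lists. In the ESC lists it was 11 of 30. In ADIPO, 8 genes (Acta1, Tnnc2, Lmod2, Lmod3, Myl1, Des, Tcap and Ldb3) had an H3K18la promoter that was also called in GAS or MT and in no stem cell or macrophage list, against 3.42% of all genes. Body coverage in ADIPO was 64.6% for Lmod2 (leiomodin 2, which elongates thin filaments), 64.5% for Ldb3 (the Z-disc protein ZASP), 55.9% for Tnnc2, 38% for Acta1, 20.9% for Des, 5.26% for Lmod3, 3.86% for Myl1 and 3.32% for Tcap. The Ldb3 and Tcap peaks also overlapped promoters of Opn4 and Pnmt. H3K27ac in ADIPO covered 49.2% of Ldb3, 46.8% of Lmod2, 41.8% of Acta1, 5.34% of Myl1 and 4.39% of Lmod3, and none of Tnnc2, Des or Tcap. The 6 skeletal muscle markers (Ckm, Cacna1s, Ryr1, Pygm, Pvalb and Atp2a1) had no H3K18la promoter call in ADIPO. The source of the ADIPO calls was not tested.

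A list of 35 further sarcomere genes was also chosen with earlier results known. H3K18la was called at 32 of their promoters in GAS (against 36.1% of all genes), 28 in MT (34.8%), 15 in MB (11.1%), 13 in ESC-ser (33.4%), 13 in ESC-2i (37.8%), 6 in BMDM (18.5%), 9 in PIM (37.8%) and 11 in ADIPO (44.7%). H3K27me3 was called at 8 in GAS (23.9%), 7 in MT (20.1%), 4 in MB (12.5%), 16 in ESC-ser (27%), 17 in ESC-2i (22.5%), 12 in BMDM (19.2%) and 17 in PIM (26.4%). Their median H3K18la body coverage was 33.3% in GAS, 22.9% in MT and 5.29% in MB.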

How the data were processed

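CUT&Tag peak lists for 4 histone marks in 8 cell types were used, 24 lists from 41 samples. According to the submitters' processing notes and the methods, reads were checked with FastQC (the sources differ on its version), trimmed with Trim Galore 0.6.6, aligned to mm10 with Bowtie2 2.4.4, handled with SAMtools 1.13 and bedtools 2.30, and replicates were pooled before peaks were called with SEACR 1.3 in stringent mode. Duplicate removal is not given in the sources used here. The deposited columns hold the total signal of each peak and, as a peak score, its maximum signal, as the authors' peak caller wrote them, not scaled to depth. The peak lists hold no read depth and the study's read totals per sample were not used here, so no value carries a counting interval, and Wilson intervals describe the number of genes only. Signal was therefore ranked only within its own list.

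Genes and starts came from GENCODE M21 on GRCm38, which is mm10. A promoter was called where at least 1 bp of a peak lay within 2000 bp of any annotated start, on chromosomes 1 to 19 and X. Body coverage was the percentage of gene bases under peaks. Both were compared with all 21755 protein-coding genes. Members had a median of 5 annotated starts, against 3 for all protein-coding genes, and so more windows in which a promoter could be called. Their median length was 21651 bp, against 17414 bp. Shares were not adjusted for starts or length. Body coverage by H3K18la was tested per gene with an exact permutation test and Benjamini-Hochberg adjustment at 0.05. H3K27me3 (3 against 4 cell types), H3K27ac (1 against 4) and H3K4me3 (1 against 3) were not tested. CpG content and motifs were read from the genome and from the RefSeq promoter table. Genes named were the most and least covered of each role by mean H3K18la coverage in muscle, the troponins, genes with no muscle call or with calls in 3 or more other lists, genes with H3K27me3 in GAS, and those whose groups did not overlap. Nebulin relatives, tropomyosins, actins, Tnnt2, Ttn and the genes of other combinations were named after their values were seen. The members and all gene lists were chosen with earlier results of these data known. Python 3.11.15, numpy 2.4.6, pandas 2.3.3, scipy 1.17.1 and matplotlib 3.10.9 were used, and the scripts were tested on simulated data.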

Additional observations from a re-analysis of the deposited data

How the results depend on the processing

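Of 94 recomputed summary values 80 stayed within their range or within 1.5 times the reported count, 14 moved and 0 reversed. Of 168 promoter shares per list 31 moved. Of 615 differences in H3K18la coverage 35, in 11 members, changed sign, 16 of them (in 8 members) with a cell type left out. Among members whose GAS and MT values lay above the 5 others this happened for Mybpc1, whose difference of 3.57 points became -0.876 with the 5000 peaks of largest total signal per list and -1.1 with lists reduced to equal covered bases. With 5000 peaks the H3K27me3 promoter share differed by -17.5 points, 3 members (0.791% of all genes) did not overlap between groups, the coverage difference of medians was 3.16 points, 21 members held all 3 active marks in GAS (4.39% of all genes) and the median percentile in GAS H3K18la was 75.6, against 58.3 for all genes. With equal bases these were -13.4 points, 1 member (0.363%), 0 points, 11 members (1.94%) and 58, against 56.6. Members that did not overlap numbered 10 with nuclei only (3.68% of all genes), 9 without ESC-2i and ADIPO (3.69%) and 17 with lists pooled from 2 samples only (7.85%), a choice made after seeing the data, as was adding RefSeq starts. Leaving out each cell type in turn gave 27.6 to 59.3 points for the H3K18la share, -29.3 to -24.4 for the H3K27me3 share, 5 to 17 members that did not overlap (1.97% to 7.79% of all genes), 11.3 to 23.9 points for median coverage and 0 to 0 members past the adjusted threshold. The highest of the share and of the count were without MB, a single-sample list. The cause of these shifts was not tested. No paired analysis was possible because replicates were pooled before peak calling and no list carries a replicate number.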
